A study of Mus musculus with 12 samples.

Results

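The lysosomal genes described here are 41 of the 56941 genes counted, chosen by name for their known place in the organelle and found by matching the Ensembl identifiers of the count tables to mouse gene symbols. They encode 11 proteases, 13 enzymes that cleave glycans and glycosaminoglycans, 9 lipid hydrolases and lipid-binding proteins, 6 membrane proteins, progranulin and the transcription factor TFEB. All 41 were matched, and all passed the filter on low counts in every comparison. RNA was sequenced from bone marrow-derived macrophages of C57BL/6J mice, either wild-type (WT) or miR-210 knock-out (KO), without IL-4 (M0) or with it (M2), with 3 libraries in each of the 4 groups. The KO and WT mice were bred from heterozygous parents, whose deleted allele came from floxed miR-210 mice mated to a line with Cre under Gata-1, and their age is not given in the sources used here. Monocytes were purified by negative selection, which removes antibody-labelled erythrocytes, lymphocytes, neutrophils and dendritic cells, and grew for 7 days in medium with 30% L929-conditioned medium, the source of M-CSF, and 20% fetal bovine serum. M2 macrophages then received 20 ng/mL IL-4 for 72 h, while M0 controls of both genotypes were kept without it. The libraries held between 7930525 and 10167695 counts, ribosomal RNA had been depleted, and duplicate reads had been removed before counting. Nothing in the labels ties the libraries of a group to separate animals, so p-values measure only the spread between these libraries. Every group also has a separate batch name in the labels, and in each comparison the batch cannot be told apart from the group.

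Lysosomes are acidic organelles in which hydrolases break down proteins, glycans, glycosaminoglycans and lipids delivered by endocytosis, phagocytosis and autophagy. Macrophages hold many of them, because digestion of engulfed particles and dead cells ends there. Many genes of the organelle carry an E-box-like motif near their start, which TFEB and the related factors TFE3 and MITF bind when nutrient signalling at the lysosomal surface is low.

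The miR-210 gene that the deletion removes encodes the mature strands miR-210-3p and miR-210-5p. The 3p strand is shown first, from RefSeq, with the seed (bases 2 to 8) in capitals.

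mmu-miR-210-3p: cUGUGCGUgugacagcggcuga

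The precursor gene Mir210 was counted 1, 3 and 5 times in WT M0 and 1, 2 and 1 times in WT M2, and never in the 6 KO libraries, where 3 counts is the limit that a count of 0 allows. These counts are too few to measure its level, and they do not go against the labels.

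Promoter windows of 300 bases, 250 before and 50 after an annotated start, were found in the RefSeq-derived table for 37 of the 41 genes, all except Ctsb, Ctsh, Asah1 and Npc1. The letters CACGTG, the core that TFEB-type factors bind and which reads the same on both strands, occurred in at least 1 window of 14 of these genes (37.8%) and of 2187 of the 27025 genes in the table (8.09%). The longer forms TCACGTGA and GTCACGTGAC, each of which contains the core, occurred in 5 lysosomal genes (13.5%, against 1.12% of all genes) and in 1 (2.7%, against 0.37%). The windows of 6 genes are printed 5′ to 3′ on the strand of the gene, with the longest of these motifs found in each window in capitals. Ctsl and Gm2a are among the genes that rose most with IL-4, Ctsc and Sgsh fell most, and Mcoln1 and Cln3 hold the longer motifs. Positions are those of GRCm39, found by an exact match of the sequence to that genome, and distances are counted from the annotated start.

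Ctsl (chr13:64518285-64518584, minus strand): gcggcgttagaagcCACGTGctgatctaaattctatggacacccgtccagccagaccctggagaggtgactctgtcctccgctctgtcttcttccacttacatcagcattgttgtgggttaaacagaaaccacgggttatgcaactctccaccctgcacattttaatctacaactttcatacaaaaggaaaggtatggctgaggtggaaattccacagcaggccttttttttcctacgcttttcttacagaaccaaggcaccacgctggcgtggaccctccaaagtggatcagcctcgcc
Gm2a (chr11:54988561-54988860, plus strand): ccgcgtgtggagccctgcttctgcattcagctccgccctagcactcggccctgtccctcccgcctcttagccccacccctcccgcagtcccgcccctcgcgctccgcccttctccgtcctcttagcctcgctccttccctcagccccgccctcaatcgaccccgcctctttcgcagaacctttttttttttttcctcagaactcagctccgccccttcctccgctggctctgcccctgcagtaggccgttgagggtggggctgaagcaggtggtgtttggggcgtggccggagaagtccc
Ctsc (chr7:87927043-87927342, plus strand): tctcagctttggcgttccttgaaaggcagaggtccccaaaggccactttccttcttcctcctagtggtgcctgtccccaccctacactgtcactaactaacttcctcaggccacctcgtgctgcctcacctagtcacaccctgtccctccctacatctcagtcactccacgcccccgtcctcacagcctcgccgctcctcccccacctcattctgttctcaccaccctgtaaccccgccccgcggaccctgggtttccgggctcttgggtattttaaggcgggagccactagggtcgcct
Sgsh (chr11:119246287-119246586, minus strand): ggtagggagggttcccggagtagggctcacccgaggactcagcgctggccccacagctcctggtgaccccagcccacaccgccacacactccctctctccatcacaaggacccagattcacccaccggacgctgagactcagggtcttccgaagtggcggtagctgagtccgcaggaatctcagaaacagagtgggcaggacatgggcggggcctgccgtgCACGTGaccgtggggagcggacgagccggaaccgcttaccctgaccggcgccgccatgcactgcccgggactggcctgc
Mcoln1 (chr8:3550269-3550568, plus strand): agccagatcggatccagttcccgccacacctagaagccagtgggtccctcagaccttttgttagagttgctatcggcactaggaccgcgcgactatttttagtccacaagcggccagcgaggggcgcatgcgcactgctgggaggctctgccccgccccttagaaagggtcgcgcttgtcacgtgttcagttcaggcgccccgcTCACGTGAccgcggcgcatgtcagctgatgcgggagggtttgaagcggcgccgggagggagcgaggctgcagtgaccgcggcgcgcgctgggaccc
Cln3 (chr7:126182359-126182658, minus strand): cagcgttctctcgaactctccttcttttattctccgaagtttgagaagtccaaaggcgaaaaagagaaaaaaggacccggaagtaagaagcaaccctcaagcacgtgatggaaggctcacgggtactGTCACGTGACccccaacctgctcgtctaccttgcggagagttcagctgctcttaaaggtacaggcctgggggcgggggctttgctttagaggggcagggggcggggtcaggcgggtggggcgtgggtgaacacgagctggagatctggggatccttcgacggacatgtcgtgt

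Ctsl had a single core, 236 bases before its start, and Sgsh had one 29 bases before. Mcoln1 had cores at -71 and -45, and Cln3 at -149 and -121. No core was found in the windows of Gm2a and Ctsc. Such a match describes these letters only and does not show binding.

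Per exon length, the most abundant lysosomal mRNAs in WT M0 macrophages were Ctsd at 4063 ± 134 TPM (counts per exon length, scaled to the same sum in each library, ± SD, n = 3), Psap at 3480 ± 196, Ctsb at 2964 ± 71.8, Lamp1 at 1752 ± 77.3 and Npc2 at 1210 ± 119. These encode cathepsin D, the precursor of the saposins that present sphingolipids to hydrolases, cathepsin B, a major glycoprotein of the lysosomal membrane and a cholesterol-transfer protein. In WT M2 macrophages Psap came first at 4017 ± 61.6 TPM, followed by Ctsd at 3181 ± 89.6, Ctsb at 2201 ± 40.3, Lamp1 at 1557 ± 24.4, Ctss at 1510 ± 28.5 and Ctsl at 1327 ± 78.2. The means of Lamp1 and Ctss differed by less than the sum of their SDs. The same 6 genes led in miR-210 KO M2 macrophages in the same order, and Ctsf and Arsb were the lowest in all 4 groups. About 29.2% of the exon bases of Ctsd lie under an overlapping gene of the same strand, Gm49369, so its level is uncertain.

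The 41 genes together held 2.56% ± 0.136 of the counts in WT M0, 2.66% ± 0.163 in KO M0, 2.53% ± 0.0268 in WT M2 and 2.61% ± 0.0691 in KO M2 (SD, n = 3). The libraries of all groups overlapped in this share, so the share of counts did not separate the groups while single genes moved in both directions. Per exon length, the share was 2.28% to 2.31% in the WT M2 libraries. It was higher in both KO groups, at 2.36% to 2.40% in KO M2 and 2.37% to 2.56% in KO M0. The WT M0 libraries, at 2.27% to 2.46%, overlapped the other groups. In both M0 groups the library numbered 2 stood low: it had the lowest value of its group for 28 of the 41 genes in WT M0 and for 27 in KO M0. Library 1 had the highest value for 25 in WT M0 and for 29 in KO M0. In KO M2, library 3 was lowest for 26 and library 1 highest for 22. No library of WT M2 was lowest for more than 16.

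IL-4 polarization of WT macrophages was compared first, and asks which lysosomal genes move in the M2 state. A gene was called when the Benjamini-Hochberg (BH) adjusted p of edgeR's quasi-likelihood test was under 0.05 and the fold change passed the limit of the study, a 1.2-fold change in either direction. Of the 41 genes, 9 were called higher and 12 lower in WT M2 than in WT M0. Over all genes eligible for this call (those coding for protein whose normalized count averaged over 10), 23.6% were higher and 21.8% lower, 45.4% in all, and the members' 22% and 29.3% stand near that background. In miR-210 KO macrophages 10 were higher (24.4%) and 13 lower (31.7%), both above the 18.5% and 18.1% of all eligible genes, 36.6% in all. Here and below, the background genes were not matched to the members in count level. The part of count level in these shares was not tested. The changes were nearly the same genes: Arsb, Ctsl, Ctss, Ctsz, Gm2a, Gusb, Man2b1 and Tfeb rose in both genotypes, and Ctsb, Ctsc, Ctsd, Ctsh, Grn, Idua, Lgmn, Mcoln1, Neu1, Ppt1, Scarb2 and Sgsh fell in both. Psap was called in WT alone and Gaa, Galc and Manba in KO alone, 17 genes were called in neither, and none was called in opposite directions. RNA of whole cultures was measured, so fewer cells of a type and less RNA per cell cannot be told apart.

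In WT, 12 genes were higher in all 3 M2 libraries than in any M0 library (29.3%, beside 30.7% of all eligible genes) and 18 lower (43.9%, beside 30.1%). In KO, 13 were higher (31.7%, beside 25.0%) and 18 lower (43.9%, beside 25.3%). The median log2 fold change of the 41 genes was -0.041 in WT and -0.12 in KO, beside 0.0053 and -0.013 for all eligible genes. Across the 41 genes the changes in WT and in KO, which share no library, had the same sign for 38 (all but Arsa, Ids and Lipa), with Pearson's r = 0.977 and Spearman's rho = 0.948 as a description over genes, which are not independent replicates. Of the genes called higher in WT, 88.9% of the lysosomal ones and 70.1% of all were called higher in KO as well. For the genes called lower these shares were 100% and 67.2%.

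**Figure D1:**
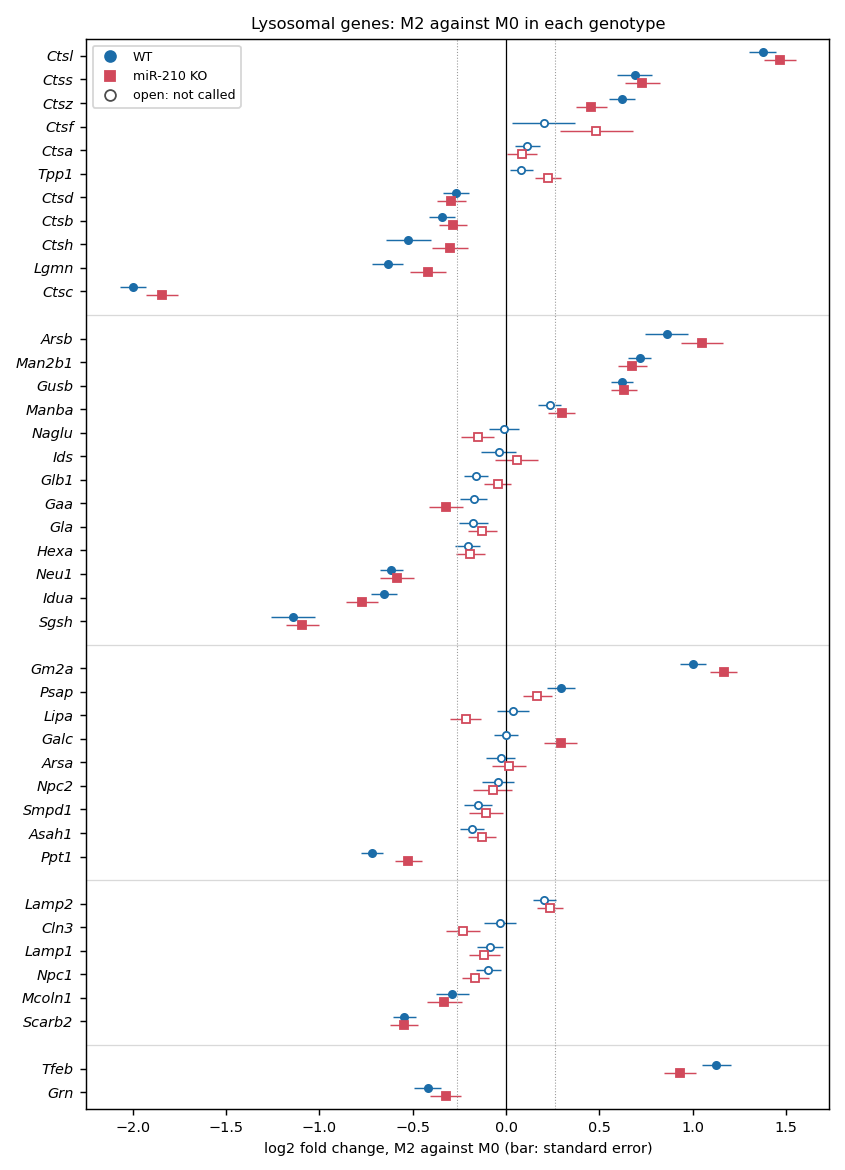
Log2 fold change of each lysosomal gene, M2 against M0 (x axis), in WT (circles) and miR-210 KO (squares), with bars of 1 standard error and filled symbols for called genes. Genes are grouped by role from top to bottom as proteases, glycan hydrolases, lipid hydrolases and lipid-binding proteins, membrane proteins, and Tfeb with Grn. Dotted lines mark the fold limit. Ctsl (1.37 in WT) and Ctsc (-2.00 in WT) are the extremes, and the symbols of both genotypes lie side by side for most genes.

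Among the 11 proteases, 3 rose and 5 fell in each genotype. The counts of this and the other roles stand beside 23.6% higher and 21.8% lower of all eligible genes in WT. In KO the same shares were 18.5% and 18.1%. Cathepsin L (Ctsl), a cysteine endopeptidase, rose most. Its level in CPM (counts scaled to the TMM-adjusted library total) was 798, 708 and 723 in WT M0 against 1987, 1966 and 1803 in WT M2, and in KO it was 778, 635 and 726 in M0 and 1962, 2019 and 1932 in M2. All M2 libraries lay above all M0 libraries, and the fold was 2.59 in WT (log2 fold change 1.37 ± 0.07 SE, edgeR, BH-adjusted p = 4.14e-09) and 2.76 in KO (1.47 ± 0.08, edgeR, BH-adjusted p = 3.4e-08). About 6.9% of the 50-base stretches of the Ctsl transcript also occur in other transcripts, so a small part of its reads could be counted elsewhere.

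Cathepsin S (Ctss), known for trimming the invariant chain of MHC class II in antigen-presenting cells, measured 1221, 906 and 1118 CPM in WT M0 against 1711, 1771 and 1726 in WT M2. The groups did not overlap, and the log2 fold change was 0.69 ± 0.09 in WT and 0.73 ± 0.09 in KO. Cathepsin Z (Ctsz), a carboxypeptidase, stood at 692, 613 and 685 CPM in WT M0 and at 1009, 983 and 1058 in WT M2, again without overlap, with log2 fold changes of 0.62 ± 0.07 in WT and 0.46 ± 0.08 in KO.

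Cathepsin C (Ctsc), the dipeptidyl peptidase that activates granule serine proteases, moved furthest of the 41 genes. It measured 818, 863 and 867 CPM in WT M0 against 201, 228 and 206 in WT M2, and 826, 774 and 865 CPM in KO M0 against 245, 235 and 207 in KO M2. With IL-4 it stood at 0.25 of its M0 level in WT (log2 fold change -2.00 ± 0.07, edgeR, BH-adjusted p = 8.5e-11) and at 0.279 in KO (-1.84 ± 0.09, edgeR, BH-adjusted p = 4.82e-09). No M2 library came near the M0 range in either genotype.

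Legumain (Lgmn), an asparaginyl endopeptidase that processes other lysosomal enzymes, had 910, 716 and 837 CPM in WT M0 against 517, 553 and 509 in WT M2. The log2 fold change was -0.63 ± 0.08 in WT and -0.42 ± 0.09 in KO. For this gene 10.8% of the 50-base stretches of the transcript are shared with other transcripts. Cathepsin B (Ctsb) fell by 0.34 ± 0.07 in WT and by 0.28 ± 0.07 in KO on the log2 scale, and cathepsin D (Ctsd) by 0.27 ± 0.07 and 0.29 ± 0.08. Cathepsin H (Ctsh), an aminopeptidase, fell by 0.52 ± 0.12 in WT and by 0.30 ± 0.10 in KO, where the M0 values of 129, 102 and 121 CPM overlapped the M2 values of 94.3, 103 and 88.9. The call of Ctsd in WT was lost without WT M0 library 1, without WT M2 library 3 and with no filter on low counts, that of Ctsd in KO without KO M0 library 1 and without KO M2 library 1, that of Ctsb in KO without KO M0 library 1, and that of Ctsh in KO without library 1 or 3 of either KO group and in the fit of all 12 libraries. The carboxypeptidase Ctsa and Ctsf were not called, with log2 fold changes of 0.11 and 0.20 in WT and of 0.08 and 0.48 in KO. Ctsf in KO was called higher in the fit of all 12 libraries, with no filter on low counts and without KO M0 library 1. Tpp1, a tripeptidyl peptidase, was not called either, at 0.08 in WT and 0.22 in KO.

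**Figure D2:**
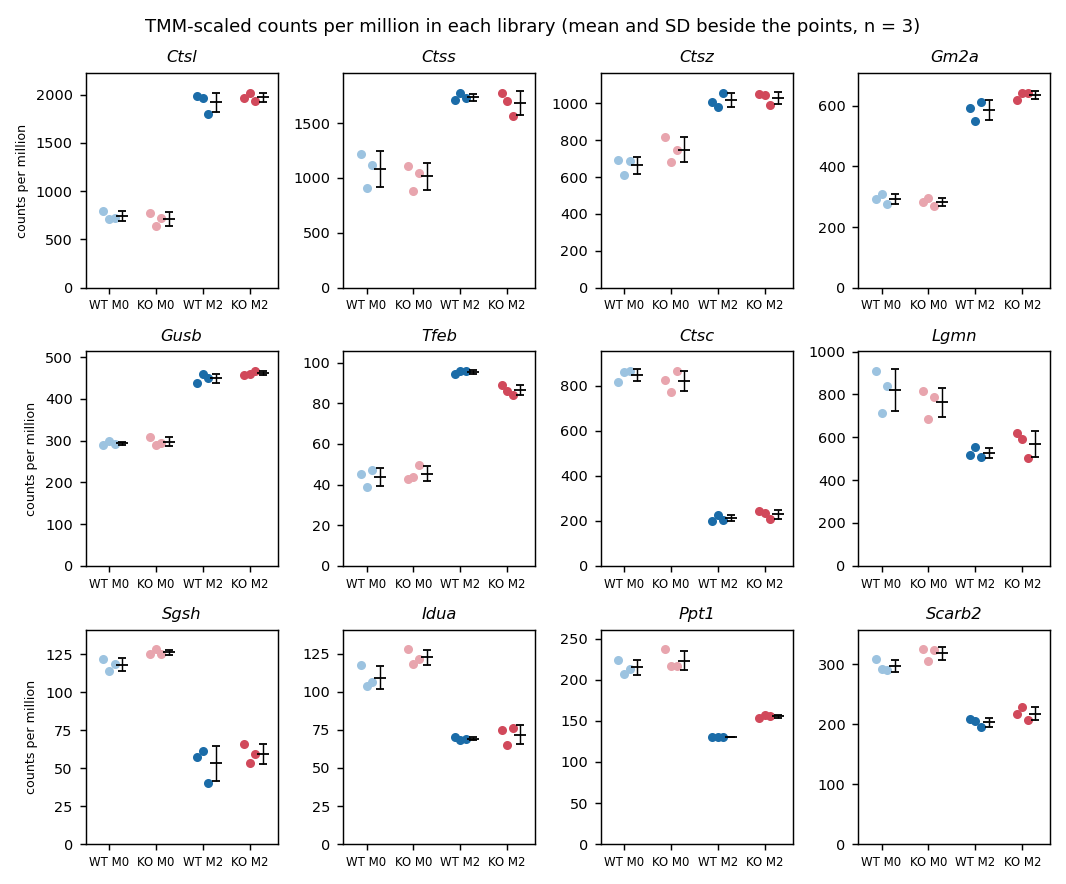
CPM (y axis from 0) of 12 lysosomal genes in every library, by group (x axis), with the mean and SD of 3 libraries drawn beside the points. Ctsl, Ctss, Ctsz, Gm2a, Gusb and Tfeb are higher in M2, and the other 6 genes are lower. Ctsl reaches 1803 to 2019 in all M2 libraries and stays at 635 to 798 in M0, while Ctsc drops from at least 774 to at most 245.

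The make-up of RNA from the 9 cathepsins among the members shifted with these changes. Cathepsins of the other lists, such as Ctsk and Ctse, were not included. Of the summed level of the 9 cathepsins per exon length, Ctsl made 5.02% ± 0.16 in WT M0 against 12.8% ± 0.56 in WT M2, and 4.59% ± 0.10 and 12.6% ± 0.27 in KO (SD, n = 3). Ctsc went from 6.14% ± 0.56 to 1.51% ± 0.10 in WT and from 5.67% ± 0.34 to 1.56% ± 0.10 in KO. The ratio of Ctsl to Ctsc in CPM was 0.877 ± 0.0863 in WT M0 against 9.09 ± 0.679 in WT M2, and 0.867 ± 0.0653 and 8.64 ± 0.659 in KO. Ctsd and Ctsb remained the largest parts, at 30.8% and 21.3% in WT M2. The shares are parts of a whole, so a rise of one lowers the others.

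**Figure D3:**
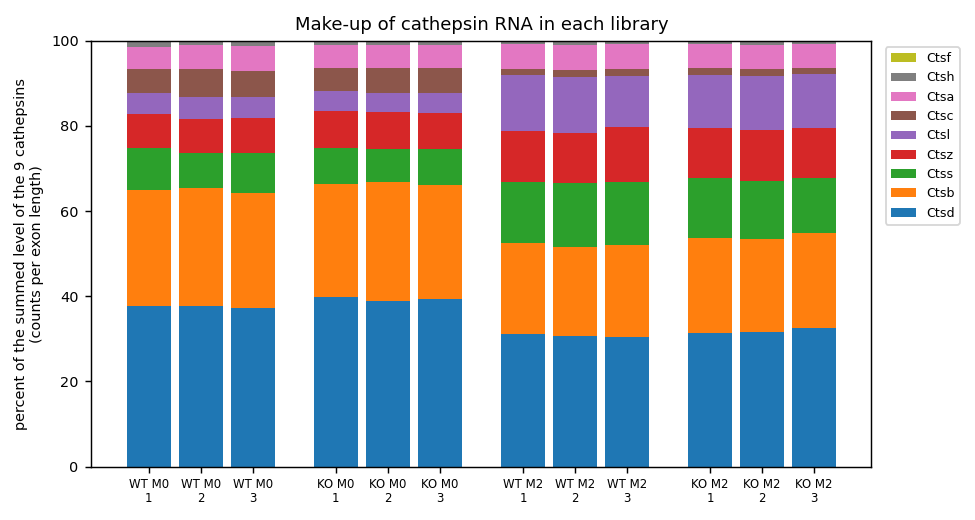
Stacked bars of the percent held by each of the 9 cathepsins among the members, of their summed level (counts per exon length, y axis). There is 1 bar for each of the 12 libraries (x axis, by group and library number). The band of Ctsl widens from about 5.02% in WT M0 to 12.8% in WT M2 and that of Ctsc narrows from 6.14% to 1.51%, alike in all 3 libraries of each group.

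Of the 13 enzymes of glycan and glycosaminoglycan breakdown, 3 rose and 3 fell in WT, and 4 rose and 4 fell in KO. Beta-glucuronidase (Gusb) measured 290.2, 298 and 293 CPM in WT M0 against 438, 460.4 and 451 in WT M2, and 309, 291 and 294 CPM against 457, 461 and 467 in KO. The groups were far apart, with log2 fold changes of 0.62 ± 0.06 (edgeR, BH-adjusted p = 1.37e-06) and 0.63 ± 0.07 (edgeR, BH-adjusted p = 1.26e-05). Lysosomal alpha-mannosidase (Man2b1) rose by 0.72 ± 0.06 in WT and 0.68 ± 0.08 in KO. Arylsulfatase B (Arsb), which removes sulfate from dermatan and chondroitin sulfate, was among the least abundant of the genes, at 14.2, 16.6 and 14.6 CPM in WT M0 against 29.4, 23.9 and 29.3 in WT M2. Its log2 fold change was 0.86 ± 0.12 in WT and 1.05 ± 0.11 in KO. Beta-mannosidase (Manba) was called in KO (0.30 ± 0.07) and stayed under the fold limit in WT (0.23 ± 0.06), and the KO call was lost when library totals replaced TMM.

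Of the enzymes of heparan sulfate breakdown, N-sulfoglucosamine sulfohydrolase (Sgsh) and alpha-L-iduronidase (Idua) fell. Beta-glucuronidase (Gusb), which acts in the same breakdown, rose in both genotypes, as given above. Sgsh measured 122, 114 and 118 CPM in WT M0 against 57.4, 61.5 and 40.3 in WT M2, and 125, 128 and 125 CPM against 65.7, 53 and 59 in KO. All M2 libraries lay far under the M0 libraries, with log2 fold changes of -1.14 ± 0.12 in WT (edgeR, BH-adjusted p = 2.81e-06) and -1.09 ± 0.09 in KO (edgeR, BH-adjusted p = 7.58e-07). Idua had 118, 104 and 107 CPM in WT M0 against 70.3, 68.1 and 69.2 in WT M2, without overlap, and its log2 fold change was -0.65 ± 0.07 in WT and -0.77 ± 0.08 in KO. The iduronate sulfatase Ids (-0.04 in WT and 0.06 in KO) and the glucosaminidase Naglu (-0.01 and -0.15), which act in the same breakdown, were not called. The sialidase Neu1 fell by 0.61 ± 0.06 in WT and by 0.58 ± 0.09 in KO. Acid alpha-glucosidase (Gaa), which degrades glycogen, was called in KO at -0.32 ± 0.09 and not in WT at -0.17 ± 0.07, and the KO call was lost without KO M0 library 3 and without KO M2 library 2. Hexa, Gla and Glb1, the alpha subunit of beta-hexosaminidase, alpha-galactosidase A and beta-galactosidase, were not called in either genotype, with log2 fold changes between -0.21 and -0.04, although Hexa in WT was called lower without WT M0 library 2.

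Of the 9 genes of lipid breakdown and binding, 2 rose and 1 fell in each genotype. The GM2 activator (Gm2a), which lifts ganglioside GM2 from the membrane for beta-hexosaminidase, measured 294, 308 and 277 CPM in WT M0 against 594, 549 and 614 in WT M2, and 282, 297 and 270.2 CPM against 621, 642 and 643 in KO. The fold was 2.01 in WT (log2 fold change 1.00 ± 0.07, edgeR, BH-adjusted p = 5.93e-08) and 2.25 in KO (1.17 ± 0.07, edgeR, BH-adjusted p = 6.23e-08), and the M2 libraries lay far above the M0 libraries in both. Palmitoyl-protein thioesterase 1 (Ppt1), which strips fatty acids from proteins, had 224, 207 and 214 CPM in WT M0 against 130.3, 130.2 and 130.1 in WT M2. In KO it had 237, 217 and 217 CPM in M0 and 153, 157 and 156 in M2. Its log2 fold change was -0.72 ± 0.06 in WT and -0.52 ± 0.07 in KO, without overlap in either.

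Psap rose by 0.29 ± 0.07 in WT, where the call was lost without WT M0 library 2 and with library totals, and its change in KO was 0.17 ± 0.08 (edgeR, BH-adjusted p = 0.124). Galactosylceramidase (Galc) had a log2 fold change of 0.00 ± 0.06 in WT and rose by 0.29 ± 0.09 in KO, a call lost without library 1 or 3 of either KO group and with library totals. Acid ceramidase (Asah1), acid sphingomyelinase (Smpd1), lysosomal acid lipase (Lipa), arylsulfatase A (Arsa) and Npc2 were not called in either genotype, with log2 fold changes between -0.22 and 0.04, although Lipa in KO was called lower without KO M0 library 2.

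None of the 6 membrane proteins rose, and 2 fell in each genotype. Scarb2, the receptor LIMP-2 that carries glucocerebrosidase to the lysosome, measured 309, 292 and 290.01 CPM in WT M0 against 209, 205 and 195 in WT M2, and 325, 305 and 323 CPM against 217, 228 and 207 in KO. The log2 fold change was -0.54 ± 0.06 in WT and -0.55 ± 0.07 in KO, and the groups did not overlap. Mcoln1, the calcium channel mucolipin 1, fell by 0.29 ± 0.09 in WT and by 0.33 ± 0.09 in KO, calls that did not hold without WT M0 library 3, WT M2 library 1 or WT M2 library 3, and without KO M2 library 3. Lamp1 and Lamp2, the structural glycoproteins of the membrane, were not called, at -0.08 and 0.21 in WT and -0.12 and 0.24 in KO. The cholesterol exporter Npc1 (-0.10 and -0.16) and Cln3 (-0.03 and -0.23) were not called either, although Cln3 in KO was called lower with library totals and without KO M0 library 2.

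Tfeb, the transcription factor of many lysosomal genes, measured 45.3, 39 and 47.3 CPM in WT M0 against 94.3, 95.9 and 95.9 in WT M2, and 42.7, 43.7 and 49.4 CPM in KO M0 against 89.1, 85.8 and 84.2 in KO M2. All M2 libraries lay above the M0 range, with log2 fold changes of 1.13 ± 0.08 in WT (edgeR, BH-adjusted p = 6.19e-08) and 0.93 ± 0.09 in KO (edgeR, BH-adjusted p = 2.42e-06). Grn, which encodes progranulin, a secreted protein cleaved to granulins in the lysosome, fell by 0.42 ± 0.07 in WT and by 0.32 ± 0.08 in KO. Of the 14 genes with a CACGTG core in a promoter window, 1 rose (Ctsl) and 4 fell in WT, while of the 23 genes with a window and no core 8 rose and 6 fell. In KO these counts were 1 and 5 among the 14, and 9 and 6 among the 23. These counts are descriptions of small groups chosen with the results known, and no difference between them was tested.

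The rest of the lysosomal system was described with lists of 107 further genes, of which 35 were called higher and 24 lower in WT, and 33 higher and 19 lower in KO. These are 32.7% and 22.4% of the lists in WT, beside 23.6% and 21.8% of all eligible genes, and 30.8% and 17.8% in KO, beside 18.5% and 18.1%. The counts of the single lists stand beside the same shares of all eligible genes. Among 18 subunits and accessory proteins of the vacuolar H+-ATPase, which acidifies the lumen, 8 rose and 1 fell in WT, and 7 rose and 1 fell in KO. The largest changes were those of Atp6v0d2 (log2 fold change 3.06 ± 0.10 in WT and 3.35 ± 0.08 in KO), Atp6v0a1 (2.24 ± 0.09 and 2.45 ± 0.12) and Atp6v1b2 (0.69 ± 0.07 and 0.90 ± 0.08). Atp6v0d2 went from 151 CPM in WT M0 to 1251 in WT M2, while its ubiquitous counterpart Atp6v0d1 was not called, at 0.01 in WT and 0.03 in KO (named after its values were seen).

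Of 29 other hydrolases, 11 rose and 10 fell in WT, and 11 rose and 8 fell in KO. Acp5, the tartrate-resistant acid phosphatase, rose by 3.07 ± 0.11 in WT and 2.95 ± 0.13 in KO, and Ctsk, the collagen-degrading cathepsin K, by 2.64 ± 0.19 and 1.86 ± 0.11. Ctse, an aspartic protease, fell by 2.43 ± 0.34 and by 2.63 ± 0.32, to at most 7 counts in any M2 library. Of 23 other membrane proteins, 6 rose and 6 fell in WT, and 5 rose and 3 fell in KO. They were led by the cation channel Tpcn2 (1.35 ± 0.08 and 1.20 ± 0.08), the metal ion transporter Slc11a1 (-1.17 ± 0.08 and -1.28 ± 0.07), and the tetraspanin Cd63 (0.64 ± 0.08 and 0.74 ± 0.09).

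Of 15 genes for the sorting and maturation of lysosomal enzymes, 4 rose and 2 fell in WT, and 3 rose and 2 fell in KO. The sorting receptor Sort1 rose by 1.03 ± 0.14 and 1.07 ± 0.16, and Cln6, which acts in enzyme export from the endoplasmic reticulum, fell by 0.72 ± 0.07 and 0.65 ± 0.08. Among 19 relatives of TFEB and regulators of their nutrient control, 3 rose and 5 fell in WT, and 4 rose and 5 fell in KO. Fnip2, a partner of folliculin, fell by 1.22 ± 0.08 and 1.21 ± 0.08, and Rragc, a GTPase that recruits mTORC1 to the lysosome, by 0.93 ± 0.07 and 0.73 ± 0.07. Mitf rose by 0.99 ± 0.06 in WT and 1.04 ± 0.08 in KO, and Tfec, another family member, by 0.91 ± 0.08 and 0.99 ± 0.07. All 3 cystatins, inhibitors of cysteine cathepsins, were higher in both genotypes. Cst3 rose by 1.00 ± 0.08 in WT and 1.05 ± 0.09 in KO, Cstb by 0.51 ± 0.09 and 0.32 ± 0.12, and Cst7 went from at most 6 counts in any M0 library to 5.23 ± 0.354 CPM in WT M2 and 6.65 ± 0.204 in KO M2.

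**Figure D4:**
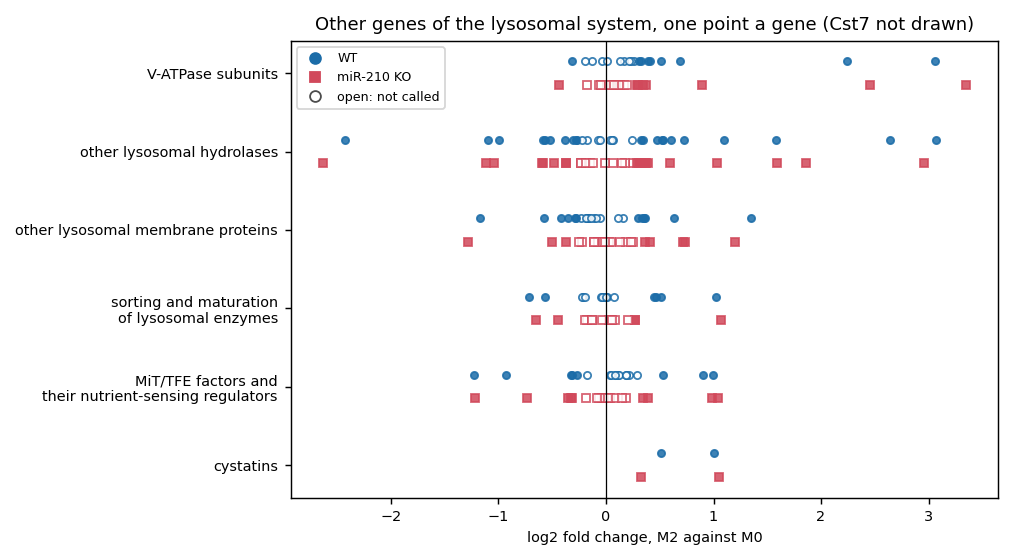
Log2 fold change, M2 against M0 (x axis), of the other lysosomal genes by list (y axis), 1 point a gene, in WT (circles) and miR-210 KO (squares), filled where called. Cst7 is not drawn because its M0 counts were near 0. The points furthest to the right are Atp6v0d2 (3.06 in WT and 3.35 in KO) and Acp5 (3.07 in WT). The furthest to the left are those of Ctse, at -2.43 in WT and lower still in KO.

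Markers of the cells were read beside these changes. The 7 macrophage markers (Cd68, Adgre1, Csf1r, Itgam, Fcgr1, Mertk and Cd14) summed to between 4086 and 4551 CPM in the M0 libraries and 3600.1 and 4071 in the M2 libraries. The 4 M2 markers (Arg1, Retnla, Mrc1 and Chil3) summed to between 1539 and 2084 CPM in M0 and 6425 and 7016 in M2. Of 4 dendritic cell markers, Zbtb46 went from 0.22 and 0.38 CPM in WT and KO M0 to 14.9 and 11 in WT and KO M2, and the other three had at most 6 counts in any library, so that the list summed to 0.309 to 0.95 CPM in M0 and 10.1 to 17.9 in M2. Its part in the IL-4 results was not tested. The 4 T cell markers summed to 0.103 to 0.381 CPM in WT M0 and 0.823 to 1.998 in WT M2, without overlap. In KO they summed to 0.0994 to 0.333 in M0 and 0.313 to 0.625 in M2, which overlapped. All of it came from Cd2 except for at most 2 counts of Cd3d. The 5 fibroblast markers summed to 0.709 to 1.13 CPM in WT M0 and 0.235 to 0.618 in WT M2. In KO they summed to 1.33 to 1.89 in M0 and 0.122 to 0.75 in M2, without overlap in either genotype. The part of both lists was likewise not tested. The 8 neutrophil markers summed to at most 5.68 CPM, the 4 erythroid markers to at most 3.89 and the 4 mast cell and basophil markers to at most 0.21.

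The effect of the miR-210 deletion was then compared within each state. In M0 macrophages none of the 41 genes was called with edgeR, beside 0.461% of all 14089 genes tested. None had an unadjusted p under 0.05 either, beside 1410 of all genes tested. DESeq2 called 0 of the 41, beside 219 of all 14089 genes tested. It gave 1 of the 41 an unadjusted p under 0.05, beside 1060 of all genes tested. The log2 fold changes, KO against WT, ran from -0.20 (Ctsh) to 0.23 (Naglu), with standard errors from 0.07 to 0.20. Their median was 0.036 beside 0.00050 for all genes, and it was 0.076 without KO M0 library 2 and 0.024 without KO M0 library 1. The adjusted p-values of edgeR lay between 0.527 and 0.96. Idua and Sgsh were higher in all 3 KO libraries than in any WT library (4.88% of the genes, beside 7.13% of all genes), and Man2b1 was lower (2.44%, beside 7.3%). No difference was detectable for these genes at this spread. The 5 fibroblast markers summed to 0.709 to 1.13 CPM in WT M0 and 1.33 to 1.89 in KO M0, and the 4 erythroid markers to 0.506 to 3.05 and 0.222 to 0.475, both without overlap. Their part in these values was not tested.

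In M2 macrophages 1 of the 41 genes, Galc, was called higher in KO (2.44%, beside 0.408% of all genes called higher and 0.98% in either direction) and none lower (beside 0.572%). Galc, which degrades galactosylceramide, measured 133, 129.9 and 138 CPM in WT M2 and 157, 154 and 174 in KO M2. The KO libraries all lay above the WT libraries, with a log2 fold change of 0.28 ± 0.06 (edgeR, BH-adjusted p = 0.0476). The call was lost without any 1 of the 6 libraries, where the adjusted p lay between 0.0551 and 0.166, and in the fit of all 12 libraries, where it was 0.211. In M0 the same gene had 142, 132 and 128 CPM in WT and 121, 145 and 129 in KO, which overlapped.

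Ppt1 had a smaller adjusted p and a change just under the fold limit, 0.26 ± 0.05 (edgeR, BH-adjusted p = 0.0313), with 130.1 to 130.3 CPM in WT M2 and 153 to 157 in KO M2. Next by p was Tpp1, at 344, 327 and 354 CPM in WT M2 and 389.4, 389.5 and 396 in KO M2, with a log2 fold change of 0.20 ± 0.05 (edgeR, BH-adjusted p = 0.0869). In all, 11 of the 41 genes had an unadjusted p under 0.05 with edgeR, beside 1498 of all 13980 genes tested. With DESeq2 it was 7, beside 873 of 13980. DESeq2 also called Galc alone of the 41, beside 140 of all 13980 genes tested.

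In the same M2 libraries the 8 neutrophil markers summed to 2.71 to 5.68 CPM in WT and 1.12 to 1.98 in KO, and the 4 T cell markers to 0.823 to 1.998 and 0.313 to 0.625. Neither list overlapped between the genotypes, and their part in the KO against WT results was not tested.

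The 10 genes higher in all 3 KO M2 libraries than in any WT M2 library were Ctsb, Ctsd, Tpp1, Gla, Glb1, Naglu, Gm2a, Galc, Arsa and Ppt1, 24.4% of the 41, where 7.52% of all genes had such an order. The 4 lower ones were Man2b1, Lipa, Cln3 and Tfeb, 9.76% beside 8.52%. On average 32 of the 41 genes were higher in KO M2 than in WT M2, and the median log2 fold change was 0.073 beside 0.0020 for all genes. These differences were small: no gene differed by more than 0.5 on the log2 scale in either state, and apart from Galc none passed both limits. Tfeb had 94.3, 95.9 and 95.9 CPM in WT M2 and 89.1, 85.8 and 84.2 in KO M2, a log2 fold change of -0.14 ± 0.06 (edgeR, BH-adjusted p = 0.425). Man2b1 was the one gene whose groups stood apart in the same direction in both states, lower in KO, with log2 fold changes of -0.16 ± 0.08 in M0 (edgeR, BH-adjusted p = 0.536) and -0.19 ± 0.06 in M2 (edgeR, BH-adjusted p = 0.149).

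**Figure D5:**
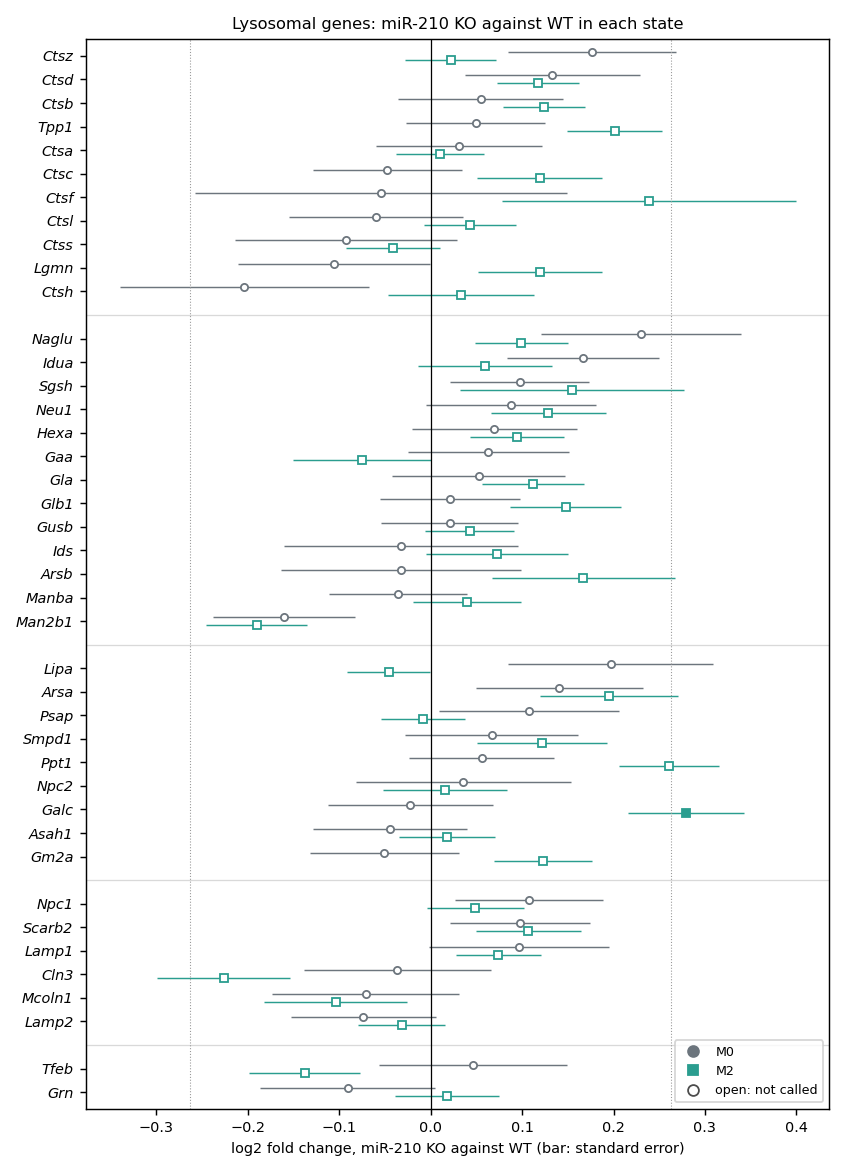
Log2 fold change of each lysosomal gene, miR-210 KO against WT (x axis), in M0 (circles) and M2 (squares), with bars of 1 standard error, genes grouped by role as before. The dotted lines mark the fold limit, and the single filled symbol is Galc in M2 at 0.28. All values lie between -0.23 and 0.28.

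Of the 106 other lysosomal genes tested in M0, edgeR called none, beside 0.461% of all genes tested. DESeq2 called 1, beside 219 of all 14089 genes tested. In M2, Tcirg1, an a subunit of the vacuolar H+-ATPase, was lower in KO by 0.28 on the log2 scale (543 CPM in WT and 444 in KO, edgeR, BH-adjusted p = 0.0163), and Pla2g15, a lysosomal phospholipase, was higher by 0.27 (291 CPM and 351, edgeR, BH-adjusted p = 0.0297). The remaining genes of these lists that were tested, 104 of 106, were not called. The 1 call in each direction is 0.943% of the genes tested, beside 0.408% of all genes called higher and 0.572% lower.

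Whether the response to IL-4 differed between the genotypes was tested as the interaction over all 12 libraries. None of the 41 genes was called with edgeR, and none of all 14825 genes tested (0%), of which 1327 had an unadjusted p under 0.05, while DESeq2 called 72 genes and none of the 41. Of the lysosomal genes, 2 had an unadjusted p under 0.05: Galc, with an interaction of 0.30 ± 0.11 on the log2 scale (edgeR, BH-adjusted p = 0.385), and Ppt1, with 0.20 ± 0.09 (edgeR, BH-adjusted p = 0.524). The genes called in a single genotype, Psap, Gaa, Manba and Galc, are thus not shown to respond differently. The standard errors of the interaction ran from 0.08 to 0.26, so small differences in the response would not have been detectable with 3 libraries a group.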

How the data were processed

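The authors trimmed the reads with Trimmomatic, removed duplicates with Picard, aligned to GRCm39 with STAR and used featureCounts for a strand-specific count per gene. The deposited values are raw counts in 4 tables, 1 for each pair of groups, and 4 tables of normalized values that were not used here. The 12 columns that recur between the tables were identical, and 0 columns were left unmapped. Column names gave the group, and library numbers are not tied to samples. Removing duplicates can lower the counts of abundant genes. GENCODE symbols matched 56323 of 56941 identifiers.

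The counts of each pair of groups (6 libraries) were fitted in edgeR 4.0.16 under R 4.3.3, with TMM and filterByExpr, and tested by quasi-likelihood. The interaction used 12 libraries. P-values had Benjamini-Hochberg adjustment over all genes tested. Calls needed an adjusted p under 0.05 and a 1.2-fold change, the limit of the study, and in polarization also a protein-coding gene whose normalized count averaged over 10. The interaction had no fold limit. Standard errors are the log2 fold change divided by the square root of F. The scripts were tested on simulated counts. CPM are counts over the TMM-scaled library total, and TPM also use the length of all annotated exons of a gene together. Alternatives were DESeq2 1.42.0, other scalings, no filter, a fit of 12 libraries, other fold limits, the library number as a block, and each library left out.

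Within every group, each pair of libraries differed beyond sampling noise (chi-square per degree of freedom 1.86 to 9.59). Members, lists and tests were chosen with earlier results of these data known. All 41 members could be named, with Mir210, the markers and, per list of other genes and comparison, up to 3 called genes with the largest change. One list of markers is not reported here.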

Additional observations from a re-analysis of the deposited data

How the results depend on the processing

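Under the DESeq2 test, other scalings, no filter on low counts, the fit of all 12 libraries and each library left out, no called lysosomal gene changed direction. Of the 21 genes called in WT polarization 18 were called under all of these, and of the 23 in KO 16. Of the genes not called, 19 of 20 in WT and 15 of 18 in KO stayed uncalled under all of these. Leaving out each library gave 8 to 9 higher and 10 to 13 lower in WT and 9 to 10 higher and 10 to 15 lower in KO, with median log2 fold changes of -0.13 to -0.039 in WT and -0.17 to -0.077 in KO. The WT median was -0.13 without WT M0 library 2, -0.084 without WT M0 library 3 and -0.076 without WT M2 library 2, and the KO median was -0.077 without KO M0 library 1. For KO against WT the medians lay between 0.024 and 0.076 in M0 and between 0.051 and 0.10 in M2. With a |log2 fold change| over 1, the counts were 3 higher and 2 lower in WT and 3 higher and 2 lower in KO. Shares of all genes at other fold limits were not computed, so counts at those limits have no background beside them. Library totals gave a median of -0.082 in WT. For KO M2 against WT M2, the number of genes called higher was 0 in the fit of all 12 libraries, 2 (Galc and Ppt1) with no fold limit, 0 with a |log2 fold change| over 1 and 0 with any 1 library left out, and the cause was not tested. The summed share was 2.37% (WT M0), 2.44% (KO M0), 2.29% (WT M2) and 2.38% (KO M2) per exon length, and 1.63%, 1.66%, 1.71% and 1.74% without the 3 members with the most counts. Per exon length, all WT M2 libraries lay under those of both KO groups, unlike in the share of counts. DESeq2 called 1 of the other hydrolases higher in KO M0, and edgeR 0. Over all 14089 genes tested there, DESeq2 called 219 in either direction and edgeR 65.

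Library numbers are shared between groups, but deviations of same-numbered libraries correlated between -0.27 and 0.34 and not above 0.1 for every number in any comparison, so the numbers were not taken to pair the libraries. For KO M0 against WT M0 the correlations were 0.11, 0.34 and 0.022 for numbers 1, 2 and 3. Whether same-numbered M0 libraries share a batch was not tested. With the library number as a block, 9 rose and 12 fell in WT, 10 rose and 12 fell in KO, 0 were called in M0, 1 in M2 and 0 in the interaction.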
